A study of Mus musculus with 24 samples.

Results

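The 40 genes described here encode the machinery of mitosis and cytokinesis, from the cyclins that start division to the proteins that part the daughter cells. They were taken by gene symbol from a fixed list, and each of the 40 symbols stood once among the 40750 genes of the deposited table of the authors. That list was chosen with earlier results of these data known, so counts of members set beside all tested genes are descriptions. The table covers 24 kidney libraries from 12 male mice aged 8 to 10 weeks. All 12 mice, the sham mice included, were Kim1-GCE+/-; EGFPL10a+/- on a mixed background. Both renal pedicles were clamped for 20 minutes and kidneys were taken at day 2, day 7 or day 14, with 3 mice at each time. A further 3 mice had the same surgery without clamping and are called sham. Tamoxifen was given 6 hours before and 24 hours after ischemia, and the labels do not state its timing for sham mice separately. EGFPL10a is a ribosomal protein fused to green fluorescent protein, and beads coated with anti-GFP antibody pulled tagged ribosomes with their RNA out of each kidney homogenate. That RNA is the bound fraction, which the labels call cell-type specific, and the remainder is the unbound fraction, taken to represent the total kidney. The Kim1 allele sets which cells can carry the tag. Kim1 is the product of Havcr1, which injured proximal tubule cells make. Bound and unbound RNA at 4 times thus gave 8 groups of 3 libraries.

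Levels are given in RPKM, the read number scaled by gene length and by library size, and the inferred depth was 15.7 to 24.7 M reads per library (median 20.2 M). Differences are log2 folds ± SE from limma fitted to log2(RPKM + 0.5) of all 24 libraries, a scale that understates the change of low genes. The words rose and fell are used where the p from limma, adjusted by the Benjamini-Hochberg method over the 13721 tested genes of a comparison, lay under 0.05. Havcr1 in bound RNA was 1.49 to 5.61 RPKM in sham, 50.5 to 211 at day 2, 131 to 248 at day 7 and 21.7 to 53.6 at day 14, so no injured bound library overlapped with sham. In unbound RNA it was 3.93 to 24.1 RPKM in sham, 84.5 to 151 at day 2, 38.1 to 125 at day 7 and 18.4 to 34.3 at day 14, where it overlapped with sham. Mouse 3 gave the highest sham value of Havcr1 in both fractions. Proximal tubule markers were not higher in bound RNA. The 12 markers summed to 1189 to 1857 RPKM in sham bound and 2903 to 3164 RPKM in sham unbound libraries, and 8 of 12 were lower in the bound fraction. Of all tested genes 12.9% were called lower and 14.6% higher in sham bound than in sham unbound RNA. The 6 podocyte markers summed to 70.5 to 211 RPKM in sham bound against 19.4 to 27.0 RPKM in sham unbound RNA. The bound fraction is therefore described by how it was made and not as a pure cell type. Mouse 3 of sham and mouse 3 of day 14 stood above the other mice of their group for most of the 40 genes in both fractions, and counts are given with and without them where they differ.

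Mitosis begins when cyclins A and B bind Cdk1 and when Cdc25 phosphatases remove the inhibitory phosphates from it. Plk1 and the Aurora kinases then build the spindle, and the spindle checkpoint holds the cell until the kinetochore of every chromosome is attached. The anaphase-promoting complex, with its activator Cdc20 and its ubiquitin-conjugating enzyme Ube2c, marks securin and cyclin B for destruction, the chromatids separate, and a central spindle and a contractile ring divide the cell. Most of these genes are transcribed in the late cell cycle. Tubule cells of the adult kidney rarely divide, and surviving tubule cells enter the cell cycle after ischemia.

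Nearly the whole machinery was expressed at day 2 and was low in sham. In bound RNA 39 of 40 genes rose at day 2 against sham, where 13.3% of all tested genes were called higher, and in unbound RNA 39 of 40 rose, where 9.76% were called higher. No member fell at day 2, where 6.48% of all tested genes were called lower in bound and 5.04% in unbound RNA. The median log2 fold of the 40 genes at day 2 was 3.01 in bound RNA, beside 0.16 over all tested genes, and 2.93 in unbound RNA, beside 0.20. The one gene that rose in neither fraction was Pttg1, which encodes securin. All 3 day 2 libraries lay above all 3 sham libraries for 39 members in bound RNA (16.6% of all tested genes) and for 38 in unbound RNA (31.2%). In bound RNA Pttg1 overlapped, and in unbound RNA Pttg1 and Kif20a did. The mean RPKM was highest at day 2 for all 40 genes in both fractions, by a small margin in Pttg1. These are bulk libraries, in which more cells of a kind and more RNA per cell cannot be told apart. Markers of other cells also moved at day 2 in bound RNA: 4 of 5 tested neutrophil markers, 4 of 8 stroma markers and 2 of 10 macrophage markers rose, and 5 of 12 proximal tubule markers fell. Over the whole lists the summed level in day 2 bound and in sham bound libraries was 20.7 to 111 against 3.61 to 13.8 RPKM for neutrophil, 183 to 719 against 52.3 to 59.1 RPKM for stroma, and 88.7 to 250 against 38.8 to 62.2 RPKM for macrophage markers. Their part in the rise of the mitotic genes was not tested.

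**Figure D1:**
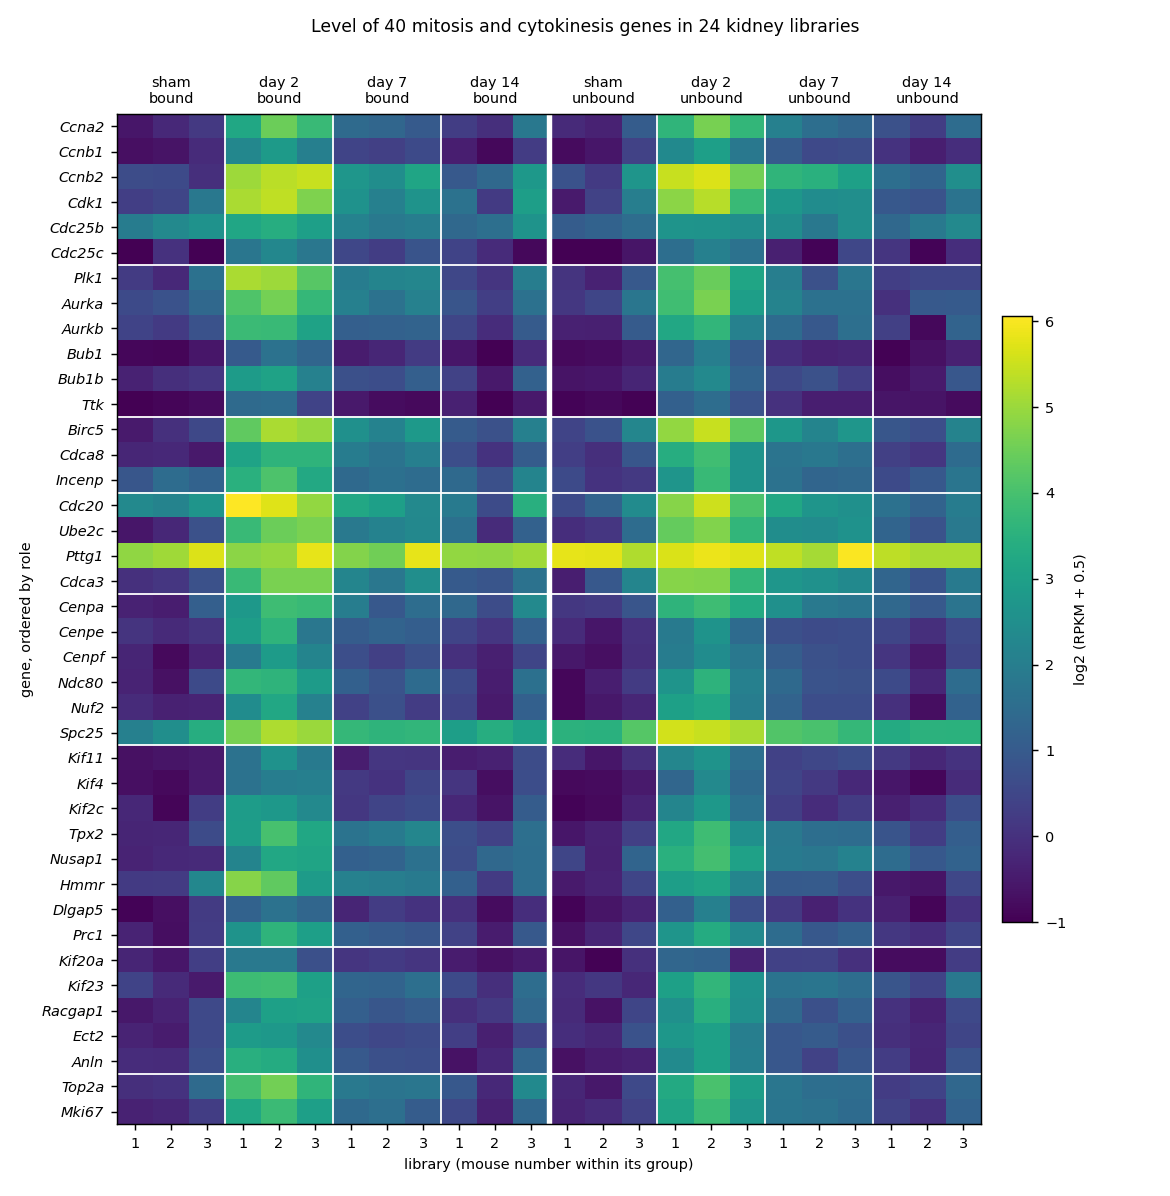
Level of each of the 40 genes (rows, ordered by role) in each of the 24 libraries (columns, by mouse number), as log2(RPKM + 0.5) in colour. The 3 day 2 columns are brighter than the sham columns of their fraction in every row except that of Pttg1, which is bright throughout, and that of Kif20a in unbound RNA, where 1 day 2 library lies within the sham range. Spc25 is the next brightest row in sham.

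At day 7 fewer of the genes passed the test against sham. In bound RNA 18 of 40 rose (15.2% of all tested genes were called higher) with a median log2 fold of 1.07, beside 0.13 over all genes. The 18 were Ccna2, Ccnb2, Cdc25c, Plk1, Birc5, Cdca8, Ube2c, Cdca3, Cenpa, Cenpe, Cenpf, Spc25, Tpx2, Nusap1, Prc1, Kif23, Racgap1 and Mki67. In unbound RNA 6 of 40 rose, namely Ccnb2, Ube2c, Tpx2, Nusap1, Kif23 and Mki67, where 0.911% of all tested genes were called higher. The median was 1.23 over the 40 genes, beside 0.18. All 3 day 7 libraries lay above all 3 sham libraries for 29 members in bound RNA (24.9% of all tested genes) and for 30 in unbound RNA (30.5%). Markers of other cells moved at day 7 as well: 6 of 10 macrophage and 2 of 8 stroma markers rose in bound RNA, and 1 of 10 and 1 of 8 rose in unbound RNA. Over the whole lists the summed macrophage level was 195 to 303 RPKM in day 7 bound against 38.8 to 62.2 RPKM in sham bound libraries, and 371 to 853 RPKM in day 7 unbound against 63.8 to 87.8 RPKM in sham unbound libraries. The summed stroma level was 77.2 to 180 RPKM in day 7 bound against 52.3 to 59.1 RPKM in sham bound libraries, and 122.8 to 223 RPKM in day 7 unbound against 42.0 to 59.0 RPKM in sham unbound libraries. Neither list overlapped with sham in either fraction, and their part in the day 7 levels of the 40 genes was not tested. The day 7 counts depend on single libraries. In bound RNA the count was 10 without sham mouse 1 or without day 7 mouse 1, 11 without sham mouse 2 or without day 7 mouse 3, and 28 without mouse 3 of sham and of day 14 in both fractions. In unbound RNA it was 0 without sham mouse 1, without sham mouse 2 or without any single day 7 library, 2 without the bound library of sham mouse 2 or of day 7 mouse 2, and 3 without the bound library of day 7 mouse 1 or 3 or the unbound library of day 2 mouse 1 or of day 14 mouse 1. It was 11 without the bound library of day 14 mouse 2, 16 without the bound library of day 14 mouse 3, and 26 without mouse 3 of sham and of day 14.

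By day 14 little could be told from sham. In bound RNA 2 of 40 rose, Cenpa and Nusap1, where 8.71% of all tested genes were called higher, so the members' share lay below the background. In unbound RNA limma called 0 of 40, where 0.984% of all genes were called higher. For 5 members the unadjusted p lay under 0.05, as it did for 2820 of the 13721 tested genes, which is a larger share. The median log2 fold was 0.52 in bound RNA, beside 0.18 over all genes, and 0.41 in unbound RNA, beside 0.22. After quantile normalization the medians of the 40 genes were 0.24 and -0.030, so the sign of the unbound median depends on the scaling. All 3 day 14 libraries lay above all 3 sham libraries for 7 members in bound RNA (15.5% of all tested genes) and for 4 in unbound RNA (28.7%). The bound count was 4 without either library of sham mouse 3. It was 1 without either library of sham mouse 1, sham mouse 2, day 2 mouse 2, day 7 mouse 3 or day 14 mouse 1, and 1 without the unbound library of day 2 mouse 1 or 3, of day 7 mouse 1 or 2, or of day 14 mouse 2. Another scaling shifts all genes together. Of all genes called against sham in bound RNA, 67.3% were higher at day 2, 66.8% at day 7 and 65.5% at day 14, and after median-ratio rescaling the shares were 46.6%, 46.0% and 40.7%. In unbound RNA they were 66.0%, 83.3% and 79.9%, and 50.8%, 74.9% and 67.0% after rescaling. The median of all genes, 0.13 to 0.22 in these comparisons, then lay between -0.037 and 0.015, and the members called were 38, 20 and 2 in bound and 39, 7 and 0 in unbound RNA. The sham libraries of a fraction are shared by its comparisons at all 3 days, which are therefore not independent of each other.

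**Figure D2:**
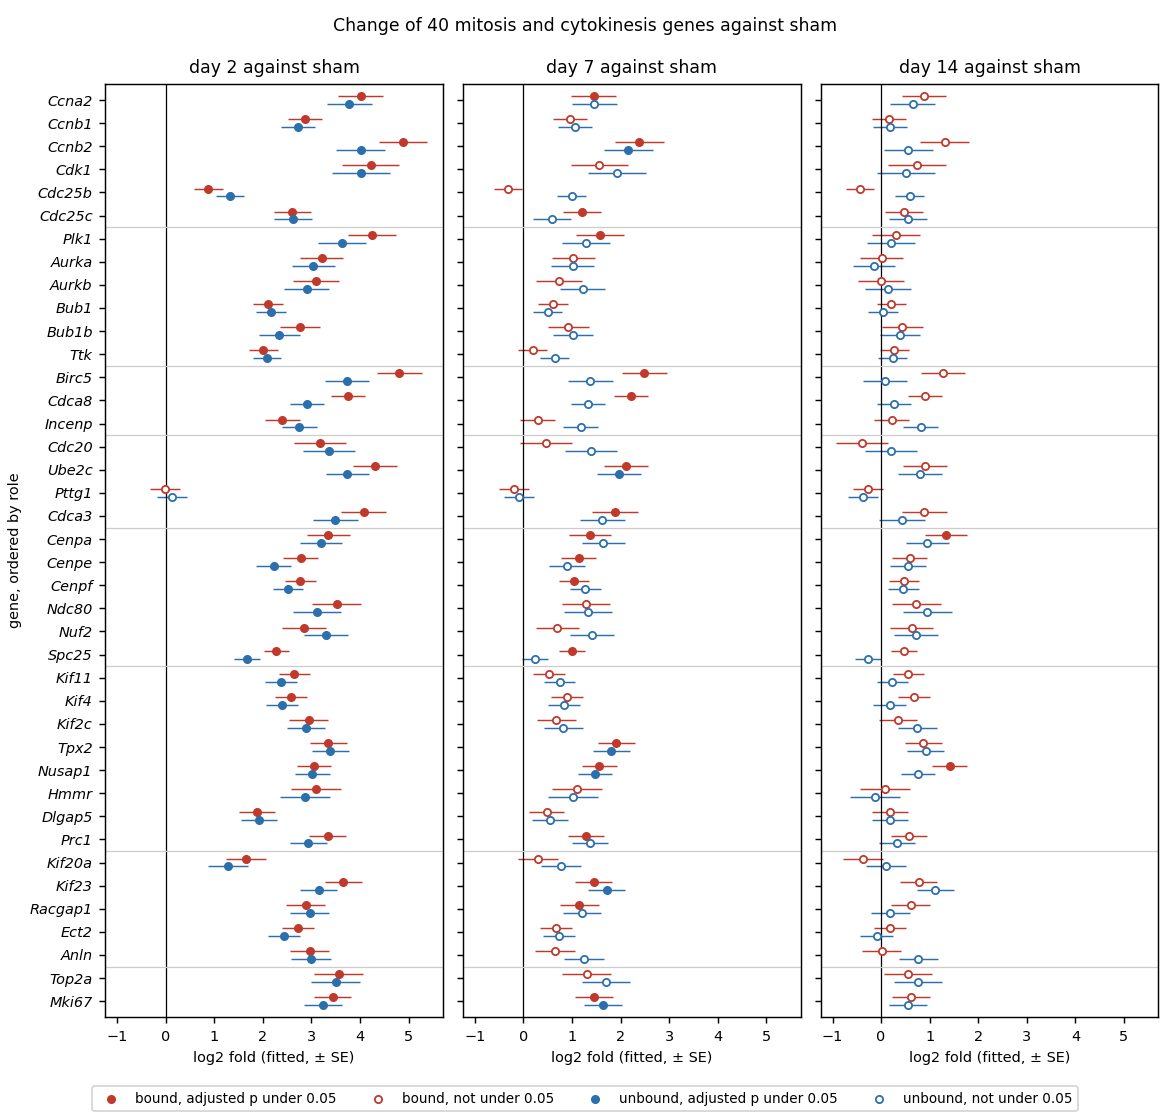
Fitted log2 fold ± SE (x axis) of each gene (y axis, ordered by role) against sham at day 2, day 7 and day 14, bound in red above unbound in blue, with filled points for an adjusted p under 0.05. At day 2 all points but those of Pttg1 are filled, 18 bound and 6 unbound points are filled at day 7, and 2 bound points at day 14.

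Most members with a promoter window share sequence words near their start. The genes were not picked by these words, and whether the words relate to the day 2 rise was not tested. Late cell cycle promoters are known for the cell cycle homology region (CHR), read by MuvB complexes, and for CCAAT boxes, bound by NF-Y. RefSeq promoters of GRCm38.p6, spanning 250 bases before to 50 after a start, were matched by symbol for 33 of 40 members, which have 35 windows. The CHR words TTTGAA or TTCGAA, on either strand, stood in 82.9% of the member windows, in 13.8% of the 12628 promoters of tested genes and in 19.2% of all 32851 promoters of this length. Between 100 bases before and 50 after the start the shares were 80.0%, 5.50% and 8.59%. CCAAT, on either strand, stood in 80.0% of member windows, 37.0% of promoters of tested genes and 37.4% of all. An E2F-like word, TTTCGCGC or TTTGGCGC, stood in 1 member window, that of Cdk1 (2.86%, beside 1.47% of tested genes' promoters), and GGGCGG in 80.0%, beside 60.6%. Of the 33 genes, 24 had both a CHR word and CCAAT, and 4 had neither: Birc5, Nuf2, Nusap1 and Pttg1. Birc5, Nuf2 and Nusap1 rose at day 2 and Pttg1 did not. The Pttg1 window lies inside the gene as annotated in GENCODE M21, so the sequence before its annotated 5′ end was not searched. These matches are descriptions of letters and not of bound factors. TTCGAA reads the same on both strands and was counted once, and the words do not overlap one another in the stretches printed here.

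The 150 bases before the start are shown, 5′ to 3′ on the strand of the gene, for examples that rose at day 2 and for Pttg1, which was not called. The examples include Cdk1, the kinase that drives mitosis, and are not the members with the largest folds as a set. Birc5, which had a larger bound fold at day 2 than most of them and neither word, is not shown. Capitals mark TTTGAA or TTCGAA and CCAAT on either strand, so that TTCAAA and ATTGG are the same words read from the other strand.
Cdk1: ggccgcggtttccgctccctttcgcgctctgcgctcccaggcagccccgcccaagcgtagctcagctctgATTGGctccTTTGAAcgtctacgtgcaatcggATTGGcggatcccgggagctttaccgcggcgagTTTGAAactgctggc
Ube2c: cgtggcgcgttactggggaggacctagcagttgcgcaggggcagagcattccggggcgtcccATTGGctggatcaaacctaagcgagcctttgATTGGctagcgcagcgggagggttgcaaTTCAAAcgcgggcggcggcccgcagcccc
Cdc20: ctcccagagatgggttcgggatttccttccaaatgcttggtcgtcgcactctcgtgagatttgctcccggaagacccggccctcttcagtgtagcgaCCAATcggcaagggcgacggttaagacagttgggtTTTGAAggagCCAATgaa
Top2a: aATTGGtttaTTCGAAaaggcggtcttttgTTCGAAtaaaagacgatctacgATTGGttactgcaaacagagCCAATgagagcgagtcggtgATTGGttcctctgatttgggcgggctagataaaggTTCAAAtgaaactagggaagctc
Mki67: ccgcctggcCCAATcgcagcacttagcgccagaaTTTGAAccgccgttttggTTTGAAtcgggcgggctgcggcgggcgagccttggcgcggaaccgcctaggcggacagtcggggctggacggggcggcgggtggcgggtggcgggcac
Ccnb2: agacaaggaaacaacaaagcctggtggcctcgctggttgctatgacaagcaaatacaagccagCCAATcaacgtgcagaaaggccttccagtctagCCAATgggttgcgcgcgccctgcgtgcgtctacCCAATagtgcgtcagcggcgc
Pttg1: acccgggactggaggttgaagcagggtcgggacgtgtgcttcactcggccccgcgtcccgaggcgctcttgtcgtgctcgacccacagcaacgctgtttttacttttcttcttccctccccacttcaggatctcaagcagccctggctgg
These stretches lie at chr10:69352913-69353062 (minus strand) for Cdk1, chr2:164769779-164769928 (plus strand) for Ube2c, chr4:118437344-118437493 (minus strand) for Cdc20 and chr11:99024190-99024339 (minus strand) for Top2a. They lie at chr7:135716380-135716529 (minus strand) for Mki67, chr9:70421555-70421704 (minus strand) for Ccnb2 and chr11:43425982-43426131 (minus strand) for Pttg1. Top2a holds 3 CHR words and 4 CCAAT boxes, Cdk1 holds 2 of each, and Pttg1 holds none. The Pttg1 stretch lies inside the gene, whose annotated 5′ end in GENCODE M21 is at chr11:43426251. Ccnb2 holds 3 CCAAT boxes in this stretch, and its CHR words begin at -167 and 5, outside it.

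The cyclins, Cdk1 and its activating phosphatases number 6 here, and all 6 rose at day 2 in both fractions. In bound RNA 3 of 6 passed the test against sham at day 7 and 0 of 6 at day 14, and in unbound RNA 1 of 6 passed at day 7 and 0 of 6 at day 14. Cdk1, the kinase at the centre of mitotic entry, had 0.734, 0.888 and 3.06 RPKM in sham, 35.5, 41.5 and 25.6 at day 2, 5.58, 3.69 and 5.71 at day 7, and 2.67, 0.649 and 7.24 at day 14 in bound RNA. In unbound RNA it had 0.210, 0.814 and 3.52 RPKM in sham, 28.3, 39.4 and 13.3 at day 2, 6.24, 4.90 and 5.13 at day 7, and 1.43, 1.26 and 2.74 at day 14. In both fractions the day 2 libraries were high and apart from every other library, and the day 7 libraries also lay above the sham libraries without overlap. The log2 fold at day 2 was 4.22 ± 0.59 in bound (adjusted p = 5.99e-05) and 4.01 ± 0.59 in unbound RNA (0.000118), and at day 7 it was 1.57 ± 0.59 in bound RNA, with an adjusted p of 0.0621.

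Ccnb2, a B-type cyclin partner of Cdk1, had the largest fitted bound fold of all 40 genes at day 2. Its bound level was 1.07, 1.01 and 0.474 RPKM in sham, 32.4, 39.98 and 44.3 at day 2, 6.06, 5.07 and 8.45 at day 7, and 1.48, 2.13 and 6.25 at day 14. Its unbound level was 1.21, 0.648 and 5.91 RPKM in sham, 43.9, 50.9 and 23.0 at day 2, 11.9, 10.8 and 7.55 at day 7, and 2.45, 1.94 and 5.12 at day 14. The groups were far apart at day 2, and day 7 also lay above sham without overlap in both fractions. The folds against sham were 4.89 ± 0.50 at day 2 and 2.38 ± 0.50 at day 7 in bound RNA (adjusted p = 3.33e-06 and 0.00271), and 4.02 ± 0.50 and 2.16 ± 0.50 in unbound RNA (2.42e-05 and 0.0414). Ccnb1, the other B-type cyclin, was lower throughout. It had 0.114, 0.143 and 0.413 RPKM in sham, 4.33, 6.66 and 3.61 at day 2, 0.874, 0.760 and 1.01 at day 7, and 0.258, 0.0564 and 0.701 at day 14 in bound RNA. Ccnb1 in unbound RNA had 0.0737, 0.169 and 0.808 RPKM in sham, 4.64, 7.42 and 3.02 at day 2, 1.52, 0.963 and 1.05 at day 7, and 0.527, 0.252 and 0.443 at day 14. Its day 2 libraries lay above all others, with folds of 2.87 ± 0.35 in bound and 2.72 ± 0.35 in unbound RNA (adjusted p = 1.14e-05 and 3.07e-05). At day 7 the bound fold was 0.95 ± 0.35 (adjusted p = 0.0541), with no overlap between the day 7 and sham libraries. Ccna2, cyclin A2, which acts from S phase into mitosis, rose by 4.01 ± 0.46 in bound and 3.78 ± 0.46 in unbound RNA at day 2.

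The Cdc25 phosphatases had different levels in sham. Cdc25b, which acts on Cdk1 at the start of mitosis, was the member with the smallest bound rise. It had 3.44, 4.55 and 5.56 RPKM in sham, 8.49, 10.1 and 7.37 at day 2, 3.899, 3.10 and 3.45 at day 7, and 2.12, 2.48 and 5.71 at day 14 in bound RNA. Cdc25b in unbound RNA had 1.57, 1.81 and 2.39 RPKM in sham, 5.75, 5.73 and 5.14 at day 2, 4.98, 3.03 and 5.13 at day 7, and 2.11, 3.09 and 4.50 at day 14. It was already expressed in sham, at a higher level in bound than in unbound RNA, and the day 2 libraries lay above the sham libraries in both fractions. The fold at day 2 was 0.88 ± 0.29 in bound (adjusted p = 0.0376) and 1.33 ± 0.29 in unbound RNA (0.00405), and in bound RNA the values at day 7 and day 14 were -0.31 ± 0.29 and -0.44 ± 0.29 against sham, neither called. After median-ratio rescaling the bound value at day 2 was 0.67 and not called (adjusted p = 0.0503 from limma, Cdc25b). Cdc25c, a second activator of Cdk1, was listed at 0 in 2 sham bound and 2 sham unbound libraries and reached 2.90 to 4.35 RPKM at day 2 in bound RNA. It rose by 2.61 ± 0.39 on the log2 scale there and stayed higher at day 7 (1.20 ± 0.39).

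**Figure D3:**
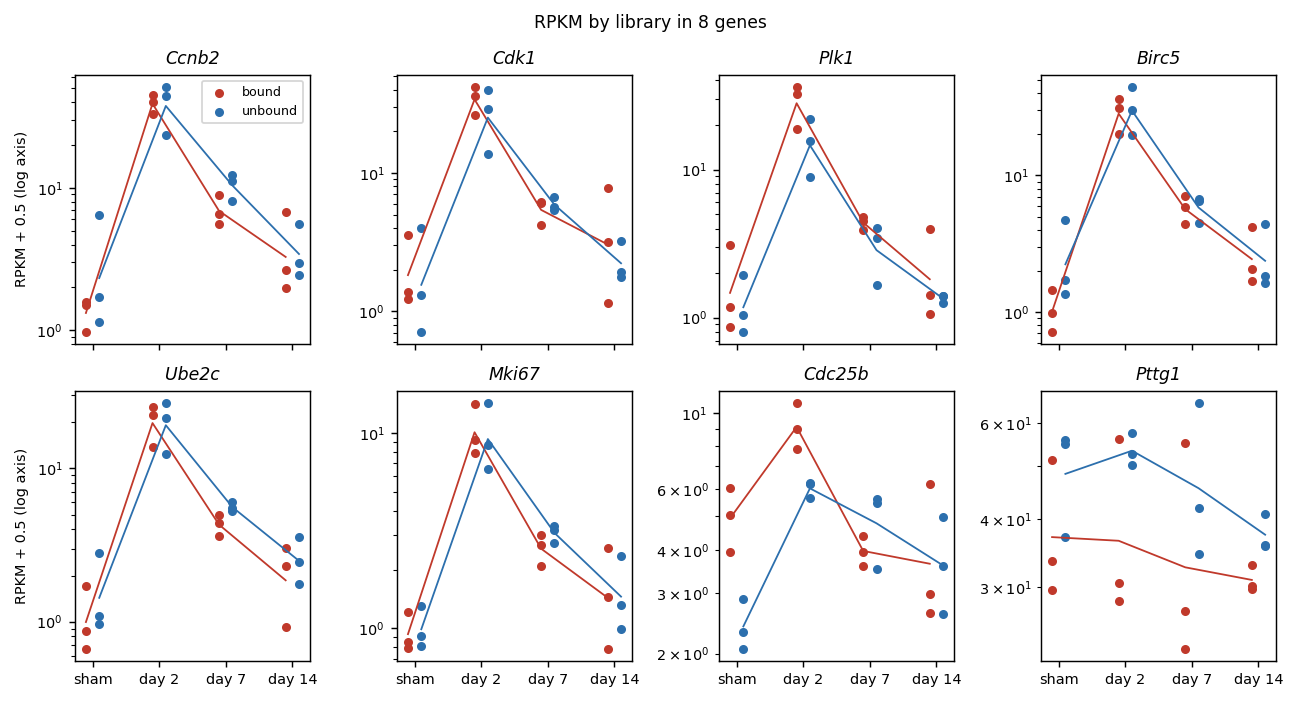
RPKM + 0.5 on a log axis in every library (points) at each time for 8 genes, bound in red and unbound in blue, with lines through the geometric means of 3 libraries. Ccnb2, Cdk1, Plk1, Birc5, Ube2c and Mki67 peak at day 2, Cdc25b shows a smaller rise from a higher sham level, and the Pttg1 groups overlap.

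The mitotic and checkpoint kinases number 6, and all 6 rose at day 2 in both fractions. Plk1 alone was called at day 7 in bound RNA, and 0 of 6 were called at day 7 in unbound RNA or at day 14 in either. Plk1, which drives spindle assembly and mitotic entry, had 0.672, 0.372 and 2.61 RPKM in sham, 35.8, 32.1 and 18.3 at day 2, 3.42, 4.02 and 4.28 at day 7, and 0.925, 0.562 and 3.47 at day 14 in bound RNA. Plk1 in unbound RNA had 0.540, 0.302 and 1.45 RPKM in sham, 15.2, 21.6 and 8.48 at day 2, 3.56, 1.17 and 2.94 at day 7, and 0.751, 0.896 and 0.895 at day 14. Every day 2 library was above every other Plk1 library of its fraction. The day 2 fold was 4.26 ± 0.49 in bound and 3.63 ± 0.49 in unbound RNA (adjusted p = 6.7e-06 and 5.27e-05), and the bound fold at day 7 was 1.58 ± 0.49 (adjusted p = 0.0260). Ttk, the Mps1 kinase that starts checkpoint signalling at kinetochores, had the smallest fitted bound fold of the 6. Ttk lay far below the added 0.5 RPKM in sham, which limits that fold, so the rank is not one of RPKM ratios. It had 0.00886, 0.0350 and 0.0742 RPKM in sham, 2.20, 2.30 and 0.846 at day 2, 0.196, 0.0916 and 0.0628 at day 7, and 0.289, 0 and 0.200 at day 14 in bound RNA. Its values in unbound RNA were 0.0210, 0.0580 and 0.0108 RPKM in sham, 1.76, 2.38 and 1.25 at day 2, 0.496, 0.253 and 0.259 at day 7, and 0.163, 0.144 and 0.0739 at day 14. Outside day 2 no Ttk library exceeded 0.496 RPKM. The day 2 fold was 2.01 ± 0.29 in bound and 2.09 ± 0.29 in unbound RNA (adjusted p = 8.51e-05 and 7.21e-05). Aurka, which matures the centrosomes, rose by 3.21 ± 0.44 in bound RNA at day 2, Aurkb, the kinase of the chromosomal passenger complex, by 3.09 ± 0.47, and the checkpoint kinases Bub1 and Bub1b by 2.11 ± 0.31 and 2.76 ± 0.42. Bub1, Ttk, Dlgap5 and Kif20a reached 1 RPKM in day 2 libraries alone. Kif4, Kif11 and Cdc25c reached 1 RPKM outside day 2 in fewer than the 3 libraries that the filter asks for (highest 1.09, 1.10 and 1.30 RPKM). All these genes passed the filter through the group in which they were high, so their day 2 calls follow in part from it.

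The partners of Aurkb in the chromosomal passenger complex, which corrects faulty attachments and later moves to the central spindle, all rose at day 2, 3 of 3 in each fraction. Birc5 and Cdca8 also passed the test at day 7 in bound RNA. Birc5 encodes survivin. It had 0.218, 0.494 and 0.942 RPKM in sham, 19.6, 35.8 and 30.7 at day 2, 5.39, 3.8996 and 6.52 at day 7, and 1.56, 1.19 and 3.70 at day 14 in bound RNA. Birc5 in unbound RNA had 0.867, 1.23 and 4.26 RPKM in sham, 29.6, 44.1 and 19.3 at day 2, 6.22, 4.01 and 6.03 at day 7, and 1.35, 1.13 and 3.95 at day 14. Day 2 stood apart from all other times, and in bound RNA day 7 and day 14 also lay above sham without overlap. The folds in bound RNA were 4.81 ± 0.46 at day 2 (adjusted p = 1.5e-06), 2.49 ± 0.46 at day 7 (0.00109) and 1.28 ± 0.46 at day 14 (0.0673). In unbound RNA they were 3.74 ± 0.46 at day 2 (adjusted p = 2.08e-05), 1.38 ± 0.46 at day 7 (0.150) and 0.085 ± 0.46 at day 14 (0.935), where the unbound library of sham mouse 3 reached 4.26 RPKM. Incenp, the scaffold that activates Aurkb, had 1.37, 2.33 and 1.85 RPKM in sham, 10.8, 16.4 and 9.10 at day 2, 2.15, 2.57 and 2.32 at day 7, and 2.15, 1.14 and 4.06 at day 14 in bound RNA. Its unbound values were 1.01, 0.532 and 0.629 RPKM in sham, 5.93, 13.01 and 5.69 at day 2, 2.68, 1.95 and 2.14 at day 7, and 0.999, 1.42 and 2.87 at day 14. Only the day 2 libraries stood clear in bound RNA, with a fold of 2.40 ± 0.36 (adjusted p = 0.000102), and the unbound fold was 2.75 ± 0.36 (3.59e-05). Cdca8, borealin, rose by 3.75 ± 0.35 in bound and 2.92 ± 0.35 in unbound RNA at day 2.

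The 4 genes of ubiquitin-directed mitotic exit parted into 3 that rose at day 2 in both fractions and Pttg1, which did not. Ube2c, the enzyme that passes ubiquitin to targets of the anaphase-promoting complex, had 0.168, 0.364 and 1.20 RPKM in sham, 13.3, 21.96 and 24.5 at day 2, 3.13, 3.91 and 4.46 at day 7, and 2.53, 0.421 and 1.81 at day 14 in bound RNA. Ube2c in unbound RNA had 0.458, 0.585 and 2.31 RPKM in sham, 20.7, 26.1 and 11.97 at day 2, 4.98, 4.77 and 5.54 at day 7, and 1.95, 1.27 and 3.09 at day 14. Day 2 and day 7 both lay above sham without overlap in both fractions. Ube2c rose by 4.32 ± 0.45 at day 2 and 2.11 ± 0.45 at day 7 in bound RNA (adjusted p = 3.33e-06 and 0.00282), and by 3.74 ± 0.45 and 1.97 ± 0.45 in unbound RNA (1.63e-05 and 0.0383). Cdc20, the activator of the complex, rose by 3.18 ± 0.54 in bound RNA at day 2, where its 3 libraries held 66.5, 52.4 and 29.6 RPKM, against 4.48, 3.97 and 5.97 RPKM in sham. Cdca3, a protein that promotes destruction of the inhibitory kinase Wee1, rose by 4.08 ± 0.47 at day 2 and 1.89 ± 0.47 at day 7 in bound RNA.

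Pttg1 encodes securin, which holds the protease separase inactive until anaphase. It had 29.2, 33.0 and 50.8 RPKM in sham, 27.9, 30.1 and 55.7 at day 2, 26.7, 22.7 and 54.8 at day 7, and 29.7, 29.3 and 32.5 at day 14 in bound RNA. Pttg1 in unbound RNA had 55.3, 54.4 and 36.6 RPKM in sham, 49.8, 57.0 and 52.2 at day 2, 41.5, 34.1 and 64.7 at day 7, and 40.4, 35.3 and 35.5 at day 14. In sham it had the highest mean RPKM of the 40 genes, and its injured groups overlapped with sham at every time in both fractions. The log2 fold at day 2 was -0.022 ± 0.31 in bound (adjusted p = 0.973) and 0.14 ± 0.31 in unbound RNA (0.796), and the sign of both turned without sham mouse 3 (0.21 and -0.052), that in unbound RNA also after median-ratio rescaling (-0.074). Its level correlated with the mean of the other 39 at r = 0.14 over the 24 libraries, while the lowest r among the other members was 0.79 (Cdc25b). Libraries share depth and mouse, and these r are descriptions.

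The centromere and kinetochore genes number 6, and all 6 rose at day 2 in both fractions. In bound RNA 4 of 6 passed the test at day 7, all but Ndc80 and Nuf2, whose day 7 libraries also lay above sham without overlap, and Cenpa passed at day 14. In unbound RNA 0 of 6 passed at either time. Ndc80, the kinetochore subunit that grips microtubules, had 0.317, 0.117 and 0.995 RPKM in sham, 12.4, 11.5 and 6.86 at day 2, 1.75, 1.25 and 2.29 at day 7, and 1.01, 0.238 and 2.56 at day 14 in bound RNA. Ndc80 in unbound RNA had 0.0470, 0.259 and 0.678 RPKM in sham, 5.83, 11.4 and 3.74 at day 2, 2.15, 1.24 and 1.18 at day 7, and 0.988, 0.345 and 2.31 at day 14. The day 2 libraries were above all others, with folds of 3.52 ± 0.50 in bound and 3.12 ± 0.50 in unbound RNA (adjusted p = 6.2e-05 and 0.000260). Spc25, a partner in the same 4-subunit complex, had 3.76, 5.09 and 9.98 RPKM in sham, 24.0, 35.9 and 31.5 at day 2, 12.7, 11.6 and 11.999 at day 7, and 7.33, 10.02 and 7.67 at day 14 in bound RNA. Spc25 in unbound RNA had 11.0, 10.6 and 17.8 RPKM in sham, 47.6, 43.5 and 35.8 at day 2, 17.4, 16.1 and 12.6 at day 7, and 9.57, 11.2 and 10.9 at day 14. Per length only Pttg1 had a higher mean in sham in either fraction, and Spc25 was lower in bound than in unbound sham RNA. Its folds at day 2 were 2.28 ± 0.26 in bound and 1.68 ± 0.26 in unbound RNA (adjusted p = 6.53e-06 and 0.000220). Nuf2, a further subunit, rose by 2.85 ± 0.45 and 3.31 ± 0.45. Cenpa, the histone H3 variant that marks centromeres, rose by 3.35 ± 0.44 at day 2, 1.37 ± 0.44 at day 7 and 1.34 ± 0.44 at day 14 in bound RNA (adjusted p = 2.51e-05, 0.0283 and 0.0465). At day 14 its libraries overlapped with sham. Cenpe, a kinetochore motor, and Cenpf, a kinetochore protein of G2 and mitosis, rose by 2.78 ± 0.37 and 2.77 ± 0.32 in bound RNA at day 2.

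The spindle motors and assembly factors number 8, and all 8 rose at day 2 in both fractions. At day 7 Tpx2 and Nusap1 passed the test in both fractions and Prc1 in bound RNA, and at day 14 Nusap1 passed in bound RNA. Tpx2, which activates Aurka and nucleates microtubules around chromosomes, had 0.326, 0.341 and 1.04 RPKM in sham, 7.10, 15.6 and 8.72 at day 2, 2.71, 3.23 and 4.22 at day 7, and 1.12, 0.814 and 2.52 at day 14 in bound RNA. Tpx2 in unbound RNA had 0.177, 0.305 and 0.763 RPKM in sham, 8.92, 14.1 and 5.23 at day 2, 3.14, 2.42 and 2.31 at day 7, and 1.28, 0.725 and 1.64 at day 14. Day 2 and day 7 lay above sham in both fractions. The folds were 3.35 ± 0.38 and 1.91 ± 0.38 in bound RNA (adjusted p = 6.19e-06 and 0.00181), and 3.39 ± 0.38 and 1.81 ± 0.38 in unbound RNA (9.71e-06 and 0.0242). Dlgap5, a stabiliser of kinetochore fibres, had 0.0262, 0.117 and 0.677 RPKM in sham, 1.85, 2.68 and 2.01 at day 2, 0.334, 0.693 and 0.534 at day 7, and 0.484, 0.0931 and 0.445 at day 14 in bound RNA. Its unbound values were 0.0234, 0.157 and 0.312 RPKM in sham, 1.74, 3.71 and 1.11 at day 2, 0.621, 0.277 and 0.517 at day 7, and 0.263, 0.0304 and 0.515 at day 14. Dlgap5 rose at day 2, by 1.87 ± 0.37 in bound and 1.92 ± 0.37 in unbound RNA (adjusted p = 0.00135 and 0.00140). Nusap1, which bundles spindle microtubules near chromosomes, had 1.05, 2.12 and 2.43 RPKM in day 14 bound libraries, against 0.322, 0.371 and 0.390 RPKM in sham bound libraries. These did not overlap, and the fold was 1.41 ± 0.35 (adjusted p = 0.0137). Among the motors, Kif11, which pushes the spindle poles apart, rose by 2.65 ± 0.32 in bound RNA at day 2, the chromokinesin Kif4 by 2.58 ± 0.33 and the microtubule depolymerase Kif2c by 2.94 ± 0.40. Prc1, which crosslinks the central spindle, rose by 3.33 ± 0.37, and Hmmr, a hyaluronan receptor that also organises spindle poles, by 3.09 ± 0.51.

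The cytokinesis genes number 5, and all 5 rose at day 2 in both fractions. Kif23 and Racgap1 also passed the test at day 7 in bound RNA, and Kif23 in unbound RNA. Kif23, the motor of the centralspindlin complex, had 0.827, 0.403 and 0.213 RPKM in sham, 13.7, 14.5 and 7.52 at day 2, 1.96, 1.86 and 2.51 at day 7, and 1.01, 0.473 and 2.41 at day 14 in bound RNA. Kif23 in unbound RNA had 0.423, 0.597 and 0.358 RPKM in sham, 7.56, 12.04 and 5.58 at day 2, 2.70, 2.83 and 2.36 at day 7, and 1.33, 0.872 and 3.05 at day 14. All day 7 libraries lay above sham in both fractions. The folds were 3.66 ± 0.38 at day 2 and 1.45 ± 0.38 at day 7 in bound RNA (adjusted p = 3.33e-06 and 0.0103), and 3.16 ± 0.38 and 1.71 ± 0.38 in unbound RNA (1.82e-05 and 0.0342). Kif20a, a motor of the central spindle, had the smallest bound fold of the 5 at day 2. It had 0.333, 0.170 and 0.737 RPKM in sham, 3.15, 3.10 and 1.16 at day 2, 0.563, 0.646 and 0.556 at day 7, and 0.225, 0.125 and 0.214 at day 14 in bound RNA. Kif20a in unbound RNA had 0.164, 0.0125 and 0.491 RPKM in sham, 2.02, 1.88 and 0.305 at day 2, 0.791, 0.814 and 0.482 at day 7, and 0.0872, 0.0933 and 0.684 at day 14. In unbound RNA the third day 2 mouse lay within the sham range. The fold at day 2 was 1.66 ± 0.41 in bound and 1.28 ± 0.41 in unbound RNA (adjusted p = 0.00779 and 0.0414). Racgap1, the partner of Kif23, rose by 2.88 ± 0.40 at day 2 in bound RNA, Ect2, the exchange factor that switches on RhoA at the cleavage plane, by 2.73 ± 0.33, and Anln, anillin, which scaffolds the contractile ring, by 2.96 ± 0.41.

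Top2a and Mki67 act on the structure of mitotic chromosomes, and both rose at day 2 in both fractions. Mki67 encodes the proliferation marker Ki-67, which coats mitotic chromosomes. It had 0.294, 0.346 and 0.712 RPKM in sham, 8.74, 13.6 and 7.43 at day 2, 2.17, 2.51 and 1.58 at day 7, and 0.950, 0.288 and 2.08 at day 14 in bound RNA. Mki67 in unbound RNA had 0.308, 0.415 and 0.809 RPKM in sham, 8.20, 13.7 and 6.08 at day 2, 2.85, 2.69 and 2.25 at day 7, and 0.812, 0.497 and 1.85 at day 14. Day 2 and day 7 were clear of sham in both fractions, with folds of 3.44 ± 0.39 and 1.45 ± 0.39 in bound RNA (adjusted p = 5.59e-06 and 0.0106) and 3.24 ± 0.39 and 1.64 ± 0.39 in unbound RNA (1.63e-05 and 0.0430). Top2a, the topoisomerase that untangles sister chromatids, had 0.474, 0.530 and 2.24 RPKM in sham, 15.1, 22.9 and 11.8 at day 2, 3.15, 2.78 and 2.93 at day 7, and 1.42, 0.386 and 4.64 at day 14 in bound RNA. Top2a in unbound RNA had 0.339, 0.185 and 0.987 RPKM in sham, 9.28, 15.996 and 7.16 at day 2, 2.94, 2.46 and 2.40 at day 7, and 0.703, 0.837 and 2.08 at day 14. It too lay above sham in every day 2 and day 7 library. The day 2 folds were 3.56 ± 0.50 and 3.50 ± 0.50 (adjusted p = 5.43e-05 and 7.45e-05), while the day 7 folds of 1.30 ± 0.50 in bound and 1.70 ± 0.50 in unbound RNA had adjusted p of 0.0639 and 0.0970.

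Between day 2 and day 7 the machinery declined in both fractions. In bound RNA 39 of 40 genes fell at day 7 against day 2, where 3.53% of all tested genes were called lower, with a median log2 fold of -2.02. The exception was Pttg1. All 3 day 7 libraries lay below all 3 day 2 libraries for 39 members in bound (14.1% of all tested genes) and 38 in unbound RNA (14.8%). The largest falls were those of Cdc20 (-2.72 ± 0.54), Plk1 (-2.68 ± 0.49) and Cdk1 (-2.65 ± 0.59), and Cdc25b fell by the least among those called (-1.20 ± 0.29). In unbound RNA 34 of 40 fell (1.82% of all tested genes were called lower), with a median of -1.66. Cdk1, Cdc25b, Bub1b, Pttg1, Cenpa and Kif20a did not pass. The unbound count rests on few libraries: it was 3 without day 2 mouse 2, 7 without day 7 mouse 2, 11 without day 7 mouse 3, 19 without day 7 mouse 1 and 20 without day 2 mouse 1. With a pseudocount of 0.1 it was 12. In bound RNA the count was 26 without day 2 mouse 2. Between day 7 and day 14 limma called 0 of 40 genes in either fraction, with medians of -0.61 in bound and -0.76 in unbound RNA. Over all genes 0% were called lower in bound and 0.00729% in unbound RNA. An unadjusted p under 0.05 was found for 10 members in bound and 18 in unbound RNA. Among the 13721 tested genes it was found for 868 in bound and 352 in unbound RNA, which are smaller shares. The fitted fold was negative for 38 of 40 genes in bound and 40 of 40 in unbound RNA. All 3 day 14 libraries lay below all 3 day 7 libraries for 12 members in bound (7.05% of all tested genes) and 25 in unbound RNA (5.89%). The order of mean RPKM was day 2, then day 7, then day 14, then sham for 31 genes in bound and 35 in unbound RNA.

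Mice of a group differed from one another, and they did so in both fractions. The mean log2 level of the 40 genes was 0.083, 0.10 and 0.69 in sham mice 1, 2 and 3 in bound RNA, and -0.021, 0.025 and 0.80 in unbound RNA. At day 2 it was 3.20, 3.65 and 3.08 in bound and 3.08, 3.59 and 2.55 in unbound RNA, and at day 7 it was 1.37, 1.29 and 1.48 in bound and 1.63, 1.30 and 1.4 in unbound RNA. At day 14 it was 0.69, 0.20 and 1.43 in bound and 0.55, 0.30 and 1.15 in unbound RNA. Mouse 3 of sham gave the highest sham value of 32 genes in bound and 36 in unbound RNA, and mouse 3 of day 14 the highest day 14 value of 34 and 32 genes. Mouse 2 of day 2 gave the highest day 2 value of 25 genes in bound and 36 in unbound RNA, and mouse 3 the lowest of 36 in unbound RNA. Markers of other cells moved with some of these libraries. Mouse 3 of day 14 had macrophage marker sums of 1827 RPKM in bound and 1852 RPKM in unbound RNA, against 119 to 174 RPKM and 315 to 389 RPKM in the other day 14 mice. Its lymphocyte sums were 43.4 and 61.3 RPKM, against 4.75 to 5.69 RPKM and 10.2 to 11.9 RPKM, and its stroma sums 695 and 574 RPKM, against 57.9 to 96.3 RPKM and 116 to 170 RPKM. Mouse 2 of day 2 had stroma sums of 719 RPKM in bound and 418 RPKM in unbound RNA, against 183 to 261 RPKM and 227 to 267 RPKM in the other day 2 mice. Mouse 3 of sham had macrophage sums of 38.8 and 63.8 RPKM, the lowest of the sham mice, and a principal cell sum of 1213 RPKM in bound RNA, against 132 to 318 RPKM. Erythroid markers were high in sham mouse 2 instead (165 RPKM in bound and 734 RPKM in unbound RNA, against 9.16 to 10.2 RPKM and 42.8 to 51.4 RPKM). The part of these cells in the levels of the mitotic genes was not tested. At day 2 the counts without mouse 3 of sham and of day 14 were 39 of 40 in both fractions.

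**Figure D4:**
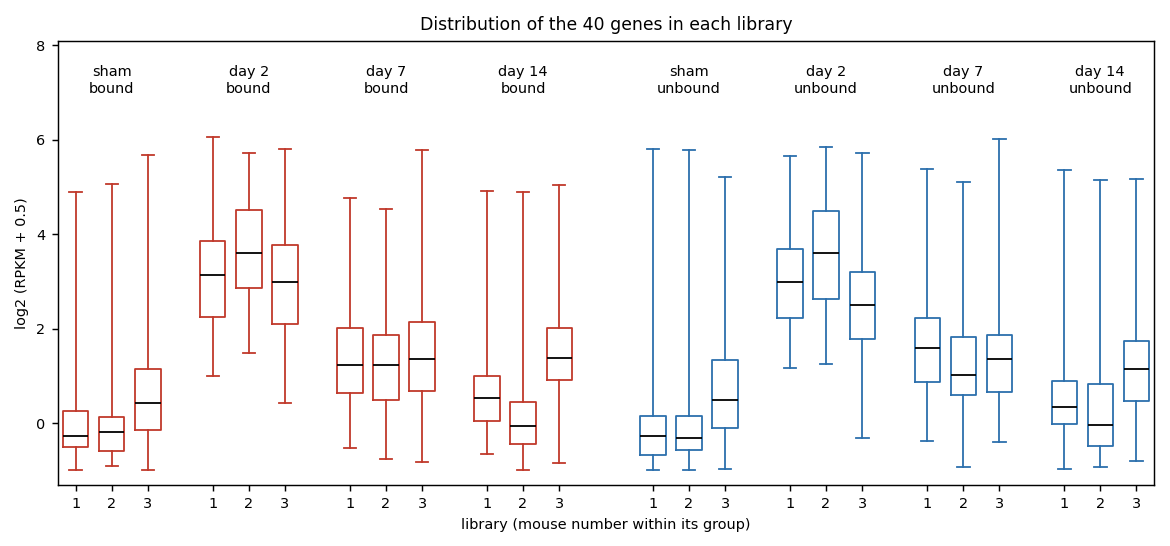
Distribution of log2(RPKM + 0.5) over the 40 genes in each of the 24 libraries, bound in red and unbound in blue. Boxes span the quartiles with the median as a black line, and whiskers reach the lowest and highest gene. Every day 2 median lies above every sham median of its fraction, and mouse 3 of sham and of day 14 has the highest median of its group in both fractions.

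Few of the 40 genes were called between bound and unbound RNA of the same time. In sham 1 of 40 genes was higher in bound RNA, Cdc25b (1.04 ± 0.29, adjusted p = 0.0114), where 14.6% of all tested genes were called higher, and 1 was lower, Spc25 (-1.08 ± 0.26, adjusted p = 0.00507), where 12.9% were called lower. At day 2, day 7 and day 14 limma called 0 of 40, where 1.68%, 2.35% and 0.816% of all tested genes were called in either direction. Unadjusted p lay under 0.05 for 2, 2 and 1 members, beside 2423, 2252 and 1439 of the 13721 tested genes, which are larger shares. The sham count was 4 without either library of day 14 mouse 3, and the day 2 count was 2 without the bound library of day 2 mouse 3. The median log2 difference of bound minus unbound was 0.025 in sham, 0.18 at day 2, -0.12 at day 7 and 0.057 at day 14, with a median SE of 0.39 per gene. Bound and unbound libraries with the same number belong together, and with the mouse as a block, fitted by limma, more differences passed, among all genes and among the 40. Hmmr was then higher in bound RNA at all 4 times, by 1.0 in sham (adjusted p = 0.00960), 1.23 at day 2 (0.0158), 1.09 at day 7 (0.0211) and 1.20 at day 14 (0.0313). At day 2 Hmmr had 26.9, 19.6 and 6.88 RPKM in bound and 7.28, 8.19 and 4.16 RPKM in unbound libraries, higher in bound RNA in 3 of 3 mice. At day 14 it had 1.73, 0.666 and 2.44 RPKM in bound and 0.183, 0.149 and 0.927 RPKM in unbound libraries. The block also called Birc5 (-1.15, adjusted p = 0.00167), Incenp (0.94, 0.00778) and Cdc20 (0.97, 0.0340) in sham, 6 genes in all where 39.3% of all tested genes were called, and Cdc25b (0.59, 0.0448), Bub1b (0.83, 0.0489) and Cenpe (0.77, 0.0356) at day 2, 4 in all where 9.50% were called. At day 7 (11.4%) and at day 14 (2.62%) Hmmr was the 1 member called. The test of whether a change against sham differed between fractions called 0 of 40 at day 2, where 0% of all genes were called, 0 of 40 at day 7 (0.146%) and 0 of 40 at day 14 (0.197%). Unadjusted p lay under 0.05 for 0, 1 and 1 members, beside 758, 2320 and 2267 of the 13721 tested genes, which are larger shares. The median SE of the members was 0.56 per gene. Without the bound library of day 14 mouse 3 the test called 1 member at day 7 and 1 at day 14. With the mouse as a block Cdc25b was called at day 7 and at day 14 and Birc5 at day 14, where 5.26% of all tested genes were called at day 7 and 6.28% at day 14.

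**Figure D5:**
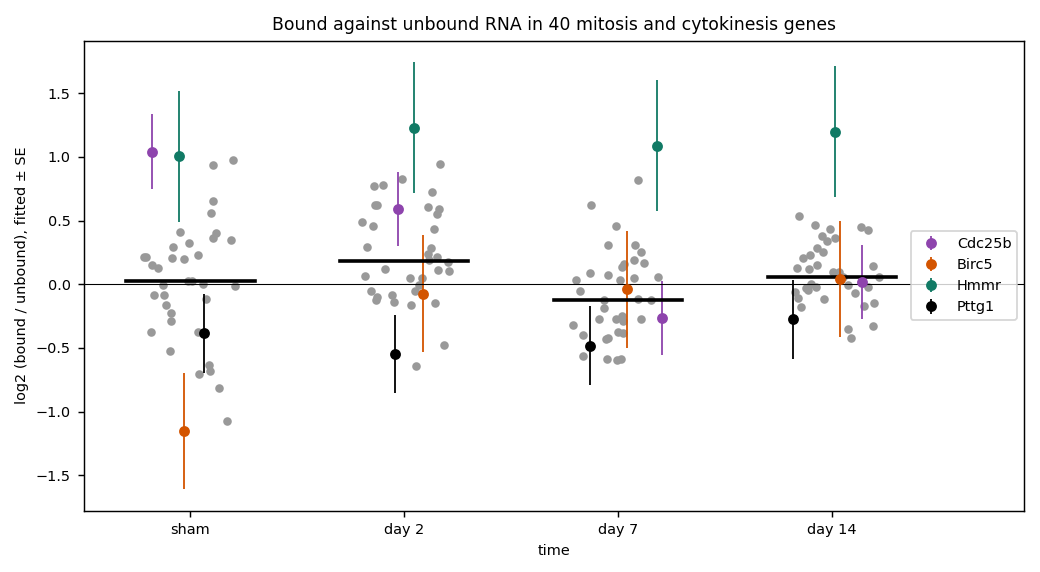
Fitted log2 difference of bound minus unbound RNA (y axis) for the 40 genes at each time (x axis), grey points with 4 genes in colour with their SE, and black bars for the median of the 40. The medians lie between -0.12 and 0.18, and Hmmr lies above 1 at all 4 times.

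Beyond the 40 genes, lists of related genes moved at day 2 to differing extents, and these lists were chosen with earlier results of these data known. The counts are to be read against the 13.3% of all tested genes called higher and the 6.48% called lower in bound RNA. In bound RNA 7 of 8 condensin genes rose, all but Ncapd3 (0.55), with a median of 1.91. Ncapg2 (2.56 ± 0.37) and Ncapg (1.73 ± 0.30) had the smallest p. Of the constitutive centromere network 13 of 17 rose, led by Oip5 (2.75 ± 0.30), which loads Cenpa, and Cenph (2.91 ± 0.35). Cenpt, Cenpl, Cenpc1 and Cenpo did not pass (0.94, 0.41, 0.29 and 0.18). Of the other checkpoint and outer kinetochore genes 12 of 16 rose, with Spc24, the fourth subunit of the Ndc80 complex (3.07 ± 0.38), and Ska3 (3.20 ± 0.41) first. Ska2, Bub3, Mad1l1 and Zw10 did not pass (0.60, -0.33, -0.12 and -0.07). Of the other spindle and centrosome genes 17 of 23 rose, led by Kif22 (3.99 ± 0.37) and Nek2 (2.79 ± 0.30). Haus3, Haus8, Ckap5, Cep152, Spag5 and Numa1 did not pass (0.87, 0.78, 0.32, 0.14, 0.14 and -0.03). The nuclear envelope list had 5 of 8 genes up, led by Lmnb1 (2.49 ± 0.35), and not Vrk1, Lmnb2 and Emd (0.45, 0.25 and -0.10).

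The lists of the anaphase-promoting complex and of cohesin hold many subunits used throughout the cell cycle. Of the anaphase-promoting complex list 4 of 17 rose, where 13.3% of all tested genes did, namely its E2 enzyme Ube2s (1.72 ± 0.30), its inhibitor Fbxo5 (2.37 ± 0.47), Anapc15 (1.17 ± 0.26) and Anapc5 (0.67 ± 0.23). Of the cohesin list 3 of 11 rose. These were the cohesion factor Cdca5 (3.34 ± 0.44), the cohesin protector Sgol1 (2.16 ± 0.36) and Espl1 (1.79 ± 0.34), the separase that Pttg1 restrains, while the core subunits Smc1a, Smc3, Rad21, Stag1 and Stag2 did not pass (-0.49, -0.71, 0.43, 0.55 and 0.19). Of the inhibitory kinases and mitotic exit phosphatase genes 5 of 10 rose, with Cks2 (1.92 ± 0.33) and Cks1b (3.06 ± 0.56) first. Of the other cytokinesis and abscission genes 5 of 12 rose, among them Arhgap11a (3.29 ± 0.37), and Rhoa fell (-0.92 ± 0.19). Among the Cdk inhibitors, which restrain division, Cdkn1a rose by 3.59 ± 0.51 at day 2 together with Cdkn2d (1.18 ± 0.33) and Cdkn2c (0.85 ± 0.27), 3 of 6 tested. At day 7 in bound RNA 1 of 8 condensin genes, 7 of 17 centromere genes and 5 of 23 spindle genes were called higher than in sham. Of all tested genes 15.2% were, and the condensin and spindle counts lie near that share. Among the other lists, genes such as Spc24 (1.61), Ska3 (1.54), Banf1 (1.54) and Cdkn1a (3.82) were called higher at day 7. Genes such as Smc1a (-0.96), Mad1l1 (-0.79) and Rhoa (-0.80) were called lower. In unbound RNA 0 of the condensin, centromere and spindle genes were called higher at day 7, where 0.911% of all tested genes were.

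The genes whose level followed the mean of the 40 most closely over the 24 libraries, members left out, included Diaph3 (r = 0.98), a formin, Cdca2 (0.98), Ckap2l (0.98), Casc5 (0.97), Tk1 (0.97), Gins2 (0.97), Kif22 (0.97), Ccne1 (0.97) and 2810417H13Rik (0.97). Ckap2l, Casc5 and Kif22 also stand on the lists above. Among the members Prc1 (r = 0.99), Mki67 (0.99) and Ccnb1 (0.98) were closest to the mean of the other 39, and Pttg1 (0.14), Cdc25b (0.79), Kif20a (0.86) and Spc25 (0.86) were farthest. In the GENCODE M21 annotation of GRCm38 the exons of 11 members share bases with a gene on the other strand, from 53 bases of Cdc20 with Elovl1 to 1271 of 4338 exon bases of Kif20a with Cdc23. The others are Prc1 with Rccd1 (911 bases), Kif4 with Pdzd11 (832), Cdc25c with Gm3550 (623), Ube2c with Tnnc2 (592), Ccna2 with Exosc9 (510), Cdca8 with 9930104L06Rik (232), Nusap1 with Oip5 (172), Plk1 with Gm44985 (156) and Cdc25b with Spef1 (92). The sources used here do not state whether reads were counted by strand, so reads of these stretches cannot be assigned to one gene, and the values of Kif20a above all are uncertain for that reason. Top2a shares 122 of its 9013 exon bases with Gm23451, a small nucleolar RNA gene on the same strand, which counting by strand would not separate.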

How the data were processed

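RNA was extracted from anti-GFP bound and unbound fractions of mouse kidney homogenate and made into libraries with a low-input RNA kit, per the labels' protocols. The authors deposited RPKM values per gene for 24 libraries in 1 table, and per the submitters' processing notes STAR 2.0.4b, Subread, featureCounts 1.4.5 and edgeR were used. The genome build and the strand setting of the counting are not given in the sources used here. Of 41831 lines, 1081 were identical repeats and were dropped, which left 40750 genes.

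A gene was tested when 3 or more of the 24 libraries reached 1 RPKM, which 13721 genes did, all 40 members among them. limma 3.58.1 in R 4.3.3 was fitted to log2(RPKM + 0.5) of all 8 groups together with a trend in the prior variance, with Benjamini-Hochberg adjustment of p over the tested genes in each of 17 comparisons. With 3 libraries a group an exact permutation test cannot reach the threshold, so the p-values rest on the variance that limma shares across genes. Each group has libraries of 3 mice by the labels.

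The table holds no counts. Depth was inferred from the spacing of low RPKM values with exon lengths of GENCODE M21. Of values up to 50 reads 73.8% to 78.0% per library were whole within 0.02 reads, where 4% would be by chance, and among member values 128 of 209 were. Counts were therefore not recovered for a count test, and precision rests on the spread between libraries.

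Same-numbered bound and unbound libraries deviated together from their group means in all 12 pairs (r 0.27 to 0.67), so a fit with the mouse as a block is given beside the bound and unbound comparisons. The members and the gene lists were chosen with earlier results of these data known. The rule for genes given in full named Mki67, Top2a, Ccnb1 and Cdk1 and the members with the largest and smallest bound change at day 2 in each role. Promoter letters are RefSeq windows of GRCm38.p6. Alternatives were 2 other pseudocounts, no filter and a filter of 5 RPKM, median-ratio and quantile scaling, no trend, the block, and leaving out each library. Leaving out sham mouse 3, alone and together with day 14 mouse 3, was chosen after seeing the data.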

Additional observations from a re-analysis of the deposited data

Results flagged for a closer look

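With the mouse as a block, the change of bound RNA against sham differed from that of unbound RNA for Cdc25b and Birc5. For Cdc25b the bound change minus the unbound change was -1.31 at day 7 (SE 0.24, limma adjusted p = 0.0223) and -1.03 at day 14 (SE 0.24, adjusted p = 0.0296) on the log2 scale. For Birc5 it was 1.19 at day 14 (SE 0.33, adjusted p = 0.0467). Without the block, the adjusted p were 0.150 and 0.227 for Cdc25b and 0.358 for Birc5. In sham, Cdc25b was higher in bound than in unbound RNA and Birc5 was lower, so both differences run against the sham difference of the same gene. All 3 rest on the same sham libraries.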

How the results depend on the processing

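The count of 39 of 40 members at day 2 was 38 or 39 in both fractions under the alternatives that tested all 40, and 29 of the 30 members tested with the filter of 5 RPKM, while counts at later times moved. For day 7 bound (18) it was 28 without mouse 3 of sham and of day 14. For day 14 bound (2) it was 4 with a pseudocount of 0.1, 1 with a pseudocount of 1, with no filter and with quantile scaling, 5 without sham mouse 3, and 4 without mouse 3 of sham and of day 14. For day 7 unbound (6) it was 3 with a pseudocount of 1, 0 with no filter, 3 with the replicate block, 21 without day 14 mouse 3, and 26 without mouse 3 of sham and of day 14. For day 7 against day 2 in unbound RNA (34) it was 12 with a pseudocount of 0.1, 18 with no filter, and 21 of 30 with the filter of 5 RPKM. For day 14 against day 7 (0) it was 3 in bound and 1 in unbound RNA without mouse 3 of sham and of day 14. For bound against unbound RNA in sham (2) it was 4 with a pseudocount of 0.1, with either rescaling and without day 14 mouse 3, and 6 with the mouse block. At day 2 (0) it was 4 with the block and 1 without mouse 3 of sham and of day 14, and 1 with the block at day 7 and at day 14. For the difference of changes between fractions (0) it was 1 at day 7 with the block, without day 14 mouse 3, and without mouse 3 of sham and of day 14, and 2 at day 14 with the block. The cause of these shifts was not tested.

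Leaving out each library in turn gave 38 to 39 at day 2 in either fraction, 10 to 23 at day 7 bound, 1 to 4 at day 14 bound, 0 to 16 at day 7 unbound and 0 to 1 at day 14 unbound. For day 7 against day 2 it gave 26 to 39 in bound and 3 to 37 in unbound RNA. For bound against unbound RNA it gave 2 to 4 in sham and 0 to 2 at day 2, and for the difference of changes 0 to 1 at day 7 and at day 14.

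Single values turned sign 19 times, 153 lost and 87 gained a call, and 3500 did neither. Pttg1 against sham in bound RNA was 0.21 at day 2 and 0.049 at day 7 without sham mouse 3, with or without day 14 mouse 3, and in unbound RNA at day 2 it was -0.052 there and -0.074 with median-ratio rescaling. Ttk at day 7 in bound RNA was -0.085 with quantile scaling. Leaving out each library, Pttg1 ran from -0.33 to 0.21 at day 2 and -0.56 to 0.063 at day 7 in bound RNA, and from -0.052 to 0.24 at day 2 and -0.35 to 0.11 at day 7 in unbound RNA. At day 7 against day 2 in bound RNA it ran from -0.54 to 0.15. Libraries with the same number at different times come from different mice, and whether they share a batch is not known. The number was used as a block between times where r passed 0.1 in every pair, a choice made from these data. That held for day 14 with day 7 in bound RNA (r 0.13 to 0.17). In unbound RNA day 14 and day 7 libraries also correlated best with their own number in 3 of 3 pairs (r 0.086 to 0.37), 1 of them under 0.1. With the block 0 members were called in either. Low members such as Ttk and Kif20a lie near the pseudocount, which limits their folds.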
